A study of Mus musculus with 9 samples.

Results

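Levels of 10 genes that mark lipid-associated macrophages were described in mouse liver RNA. These were Trem2, Gpnmb, Cd68, Lgals3, Capg, Itgax, Cd9, Spp1, Lpl and Fabp5, taken by symbol from the 27945 genes of the deposited table, and all 10 were found there and had enough reads to be tested. The 10 genes were selected on their known place in these cells and with their levels and folds in the same 9 libraries in view, so these values are a description and carry no test. The libraries, 3 per group, are of liver from mice that received saline, gefitinib alone, or gefitinib with glycyrrhizic acid (called combined here), each for 16 days. Gefitinib blocks the kinase activity of EGFR, the receptor for epidermal growth factor, and glycyrrhizic acid is a saponin from licorice. The combined group thus carries gefitinib as well, and the saline group neither agent. The labels used here give no dose, route, strain, sex or age. Nor do they say whether each library came from a separate animal, so a p-value below measures only how these samples vary, which may be technical variation.

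Lipid-associated macrophages, also described as scar-associated macrophages in fibrotic liver, arise mostly from recruited monocytes and gather where cells die or lipid builds up. TREM2 is their lipid-sensing surface receptor and signals through the adaptor TYROBP and the kinase SYK. Cargo taken up passes to lysosomes, where GPNMB and CD68 reside, while LPL frees fatty acids from triglyceride and FABP5 carries them in the cell. Several of the 10 genes are also transcribed elsewhere in the liver, among them Spp1 and Cd9 in bile duct cells and Lpl and Fabp5 in adipocytes. In RNA of whole liver, more cells of a type and more RNA per cell cannot be told apart.

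Total counts ranged from 56440871 to 60665156 per library. Levels are in CPM, counts scaled by library total and TMM factor, and 18113 genes passed the filter on low counts. Folds and their standard errors (SE) are from edgeR's quasi-likelihood fit over the 9 libraries. A gene was past the threshold at a Benjamini-Hochberg adjusted p below 0.05 over all tested genes. The 3 comparisons share libraries, so their values are given side by side and were not correlated. Skeletal muscle transcripts were present in all 3 combined libraries and in gefitinib 1, where 10 muscle markers summed to between 118 and 172 CPM, against at most 1.06 CPM in the other libraries.

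Trem2, the lipid receptor, lies at chr17:48346401-48354147 on the plus strand of GRCm38. Its level was 0.339, 0 and 0.765 CPM in saline 1, 2 and 3, and 0.792, 2.13 and 1.96 CPM in gefitinib 1, 2 and 3. In the combined group it was 11.1, 10.3 and 12.3 CPM. The 3 groups did not overlap, although gefitinib 1, at 44 reads, lay just above saline 3, at 41 reads. The combined libraries held 756, 677 and 781 reads, so the precision of Trem2 is set by the saline and gefitinib libraries. The fitted log2 fold change was 2.14 ± 0.79 (SE) for gefitinib against saline and 2.78 ± 0.75 for combined against gefitinib. The latter stood past the threshold but was lost in 11 of 18 alternatives, including 7 of the 9 that left out 1 library.

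The RefSeq promoter table (build GRCm38.p6) held 8 of the 10 genes, all but Lpl and Fabp5, and the 250 bases before the start site are printed for 4 of them whose levels in the groups did not overlap. Both strands were searched for the letters TGANTCA (the AP-1 element), CACGTG and CATGTG (an E-box and the core of the M-box, bound by the MITF and TFE family), and GAGGAAGT with its core AGGAAG (bound by PU.1, the product of Spi1). Matches are in capitals, and a match is a description of the letters only. In the window of Trem2, chr17:48346151-48346400 on the plus strand, TGAATCA begins 9 bases before the start site, and AGGAAG is read on the minus strand 41 bases before it.
Trem2: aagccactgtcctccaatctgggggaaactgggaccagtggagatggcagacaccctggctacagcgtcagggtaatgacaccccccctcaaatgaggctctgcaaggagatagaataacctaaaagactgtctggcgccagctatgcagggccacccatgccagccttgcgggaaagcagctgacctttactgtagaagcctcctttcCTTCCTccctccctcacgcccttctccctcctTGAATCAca

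Among the partners of TREM2, Tyrobp was at 5.86, 4.32 and 8.11 CPM in saline, 8.30, 10.7 and 6.98 CPM with gefitinib, and 23.8, 42.2 and 26.3 CPM in the combined group. It was 3.56-fold higher in the combined group than with gefitinib (edgeR quasi-likelihood test, adjusted p = 0.00491), and all 3 combined libraries lay above the other 6. Syk, the kinase recruited by TYROBP, rose 2.35-fold (adjusted p = 0.0018 in edgeR's test) and Blnk, an adaptor that SYK phosphorylates, rose 3.09-fold (adjusted p = 0.0289). Blnk lost its call in 8 of 18 alternatives. These were the 3 of 17 tested ligand, adaptor, kinase and sheddase genes that passed in this comparison, all higher. They made up 17.6% of the list, beside 9.08% of all tested genes. Against saline, 6 of the 17 were higher and 1 lower in the combined group (41.2% beside 17.7%), and none passed with gefitinib. The lower gene was Apoe, which encodes an apolipoprotein that TREM2 binds and that is made mainly by hepatocytes. Apoe was at 20838 ± 2309 CPM (SD, n = 3) in saline and 14819 ± 1063 CPM in the combined group (adjusted p = 0.0288, edgeR).

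**Figure D1:**
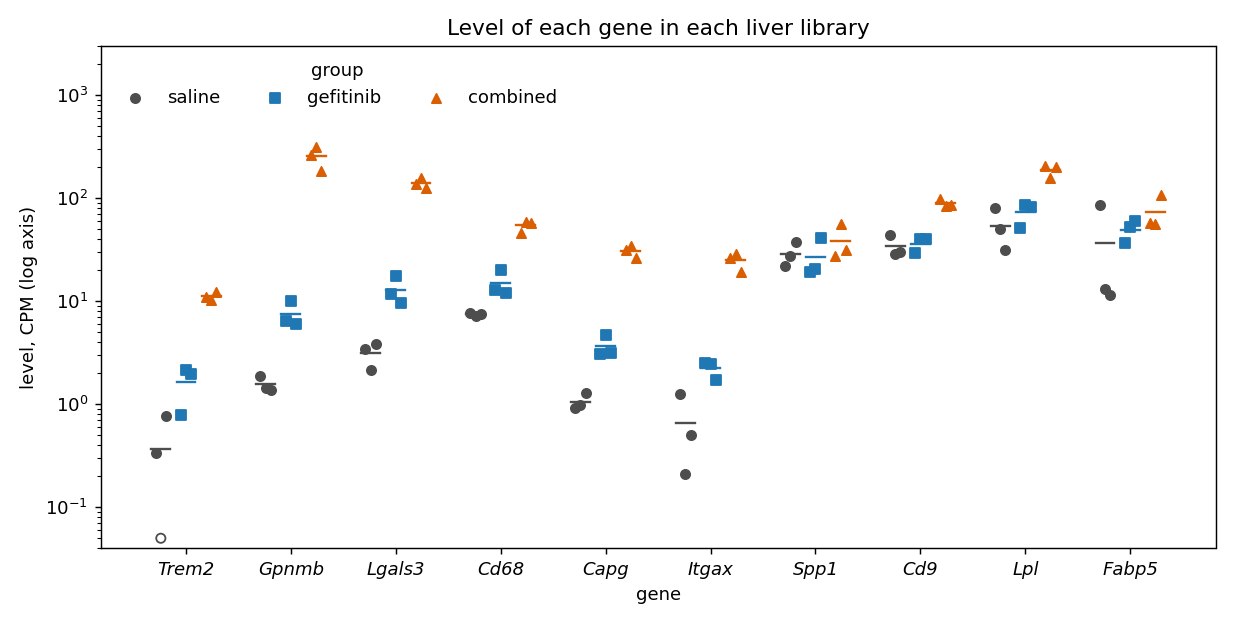
Level of each of the 10 genes in each library, in CPM on a log axis, with points for libraries and a bar for the group mean, and the open point at the bottom for Trem2 in saline 2, which had 0 reads. All 3 combined libraries lie above the other 6 for every gene except Spp1 and Fabp5.

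Gpnmb, a glycoprotein of late endosomes and lysosomes, lies at chr6:49036546-49070929 on the plus strand and had the steepest gradient of the 10 genes. It was at 1.88, 1.42 and 1.38 CPM in saline, 6.39, 10.1 and 5.95 CPM with gefitinib, and 265, 316 and 181 CPM in the combined group. The groups did not overlap, and combined against saline came to a log2 fold change of 7.35 ± 0.32, or 163-fold. On the log2 scale the gefitinib mean stood 30.2% of the way from saline to combined. None of the motifs searched was found in its window, chr6:49036268-49036517 on the plus strand, which says nothing of sites elsewhere.
Gpnmb: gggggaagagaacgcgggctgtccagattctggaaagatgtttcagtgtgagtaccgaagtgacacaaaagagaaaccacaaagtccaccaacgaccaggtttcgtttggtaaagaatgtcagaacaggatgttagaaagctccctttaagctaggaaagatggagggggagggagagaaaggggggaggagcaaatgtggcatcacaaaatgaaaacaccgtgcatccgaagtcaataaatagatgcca

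Cd68, a heavily glycosylated protein of the lysosomal membrane used as a stain for macrophages, lies at chr11:69664213-69666153 on the minus strand. Its saline values were close together, at 7.65, 7.25 and 7.55 CPM. They were 12.9, 20.0 and 11.9 CPM with gefitinib and 46.2, 59.1 and 57.6 CPM in the combined group, again without overlap. The fitted folds were 2.00 for gefitinib against saline and 3.63 for combined against gefitinib. The former was past the threshold in only 3 of 18 alternatives, while the latter was in all 18. The letters TGAGTCA occur at 2 places in its window, chr11:69666171-69666420 on the minus strand, beginning 149 and 24 bases before the start site.
Cd68: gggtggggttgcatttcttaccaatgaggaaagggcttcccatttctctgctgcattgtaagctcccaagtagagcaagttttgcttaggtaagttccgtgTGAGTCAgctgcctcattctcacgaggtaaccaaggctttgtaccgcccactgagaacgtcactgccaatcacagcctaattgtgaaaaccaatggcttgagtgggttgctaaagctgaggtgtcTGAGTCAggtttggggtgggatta

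Of 24 other lysosomal genes tested, 10 were higher in the combined group than with gefitinib and none was lower. That was 41.7% of the list, beside 9.08% of all tested genes. Ctss, a cysteine protease that macrophages and other antigen-presenting cells express, rose 6.10-fold (adjusted p = 0.0002 in edgeR's test), Atp6v0d2, a proton pump subunit of macrophages and osteoclasts, rose 5.13-fold (adjusted p = 0.000341) and Pld3, a lysosomal nuclease, rose 2.54-fold (adjusted p = 0.000507). Gefitinib against saline gave 3 higher and 0 lower in the same list, or 12.5% beside 1.14% of all tested genes. Cd63, a tetraspanin of late endosomes, was at 7.92, 6.17 and 6.51 CPM in saline and 17.5, 45.9 and 20.8 CPM with gefitinib, a 4.09-fold rise (adjusted p = 0.0248, edgeR). Atp6v0d2 rose 2.55-fold (adjusted p = 0.0174) and Ctsd, an aspartic protease, 1.41-fold (adjusted p = 0.0463, edgeR). Of 18 alternatives, Cd63 and Atp6v0d2 kept their call in 11 each and Ctsd in 4. Against saline, 15 of the 24 were higher in the combined group, or 62.5% beside 17.7% of all tested genes.

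Lgals3, which encodes galectin-3, a secreted lectin that also gathers on damaged lysosomes, lies at chr14:47367751-47386160 on the plus strand. It was at 3.43, 2.15 and 3.82 CPM in saline, 11.7, 17.4 and 9.60 CPM with gefitinib, and 137, 158 and 125 CPM in the combined group. Capg, an actin filament capping protein of macrophages, lies at chr6:72544391-72562983 on the plus strand. It was at 0.911, 0.980 and 1.29 CPM, then 3.04, 4.74 and 3.17 CPM, and then 31.6, 34.5 and 26.1 CPM in the same order. Neither gene's groups overlapped, and gefitinib 2 was the highest gefitinib library for both. Fitted folds were 4.11 for Lgals3 and 3.44 for Capg with gefitinib against saline, and 10.8 and 8.41 for combined against gefitinib. Across the libraries, the deviations of the 2 genes from their group means had a Pearson r of 0.74, given as a description over 9 libraries that share depth and composition. Neither held a motif in its RefSeq window, whose start lies 6109 bases inside the table's start for Lgals3 and 5256 bases for Capg, so those windows may not be the start used here.

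Itgax, the integrin alpha chain CD11c of dendritic cells and lipid-associated macrophages, lies at chr7:128129547-128150657 on the plus strand. It was at 1.27, 0.211 and 0.504 CPM in saline, 2.54, 2.46 and 1.71 CPM with gefitinib, and 26.3, 28.9 and 19.3 CPM in the combined group. The groups did not overlap, and saline 1 was the highest of its group by more than 2-fold. The 8 markers of dendritic cells summed to 9.26 to 19.1 CPM in saline, 7.12 to 8.79 CPM with gefitinib and 6.98 to 8.59 CPM in the combined group. Their means went both ways, with Zbtb46 at 8.57, 3.89 and 3.03 CPM and Clec9a at 2.89, 1.48 and 1.26 CPM in saline, gefitinib and combined, and Clec10a at 0.801, 1.09 and 1.41 CPM and Siglech at 0.171, 0.296 and 0.459 CPM. Their part in the level of Itgax was not tested. The letters TGAGTCA begin 56 bases before the start site in its window, chr7:128129300-128129549 on the plus strand.
Itgax: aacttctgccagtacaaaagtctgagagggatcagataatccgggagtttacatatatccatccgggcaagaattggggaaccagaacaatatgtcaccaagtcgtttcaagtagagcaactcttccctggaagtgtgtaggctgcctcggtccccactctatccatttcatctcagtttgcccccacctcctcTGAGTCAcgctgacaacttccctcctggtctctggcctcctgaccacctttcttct

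Itgb2, the beta chain that pairs with CD11c, was at 5.03 ± 2.66 CPM (SD, n = 3) in saline, 8.01 ± 2.18 CPM with gefitinib and 34.4 ± 1.73 CPM in the combined group, a 4.29-fold rise over gefitinib (adjusted p = 0.00583, edgeR). Cd44, a receptor for hyaluronan and osteopontin, rose 4.07-fold in that comparison (adjusted p = 0.00428) and Itga5, the alpha chain of a fibronectin receptor, 1.46-fold (adjusted p = 0.0269, edgeR). Itga5 lost its call in 7 of 18 alternatives. Of 13 tested integrin genes and Cd44, 6 were higher and 0 lower against gefitinib, or 46.2% beside 9.08% of all tested genes. None of the 13 passed with gefitinib against saline.

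Cd9, a tetraspanin that organises receptors in the membrane, lies at chr6:125460266-125494791 on the minus strand. Its level was 44.2, 28.7 and 30.0 CPM in saline and 29.1, 39.8 and 39.8 CPM with gefitinib, so these groups overlapped. The combined libraries, at 98.8, 83.8 and 85.9 CPM, lay above all others, 2.47-fold over gefitinib. For gefitinib against saline the log2 fold change of Cd9 was 0.08 ± 0.18, and it ran from -0.03 without saline 2 to 0.30 without saline 1. Its RefSeq window held CATGTG 38 bases and AGGAAG 203 bases before the start site.

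Spp1, which encodes osteopontin, a secreted ligand of integrins and CD44, lies at chr5:104435118-104441050 on the plus strand. Its level was 22.1, 27.5 and 37.3 CPM in saline, 19.1, 20.4 and 40.8 CPM with gefitinib, and 27.7, 55.9 and 31.4 CPM in the combined group. All 3 groups overlapped, and 1 library in each of the gefitinib and combined groups stood well above its neighbours. The fitted folds were 1.43 for combined against gefitinib and 1.32 for combined against saline, and neither was past the threshold in any of 18 alternatives. Bile duct cells are a known source of Spp1, and 9 bile duct markers summed to 27.7 to 31.2 CPM in saline and 21.2 to 24.6 CPM in the combined group. Whether they have a part in the Spp1 level was not tested.

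Lpl, the lipase that releases fatty acids from triglyceride in lipoproteins, lies on chromosome 8. It was at 79.5, 50.2 and 31.1 CPM in saline, 50.8, 85.1 and 82.0 CPM with gefitinib, and 207, 158 and 202 CPM in the combined group. Saline and gefitinib overlapped, and the combined libraries lay above both, 2.60-fold over gefitinib. That call was lost in 6 of 18 alternatives, including those without gefitinib 1, gefitinib 3, combined 1 or combined 3, while the call against saline, at 3.52-fold, was made in all 18.

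Fabp5, a cytosolic carrier of fatty acids, lies on chromosome 3 at 10012548-10016607 on the plus strand. It was at 85.0, 13.2 and 11.5 CPM in saline, 36.8, 52.1 and 59.8 CPM with gefitinib, and 57.6, 56.7 and 108 CPM in the combined group. Saline 1 stood more than 6-fold above the other saline libraries and within the range of the combined group, and the 3 groups overlapped. Without saline 1, the log2 fold change of gefitinib against saline moved from 0.44 ± 0.66 to 2.00, and that of combined against saline from 1.02 ± 0.66 to 2.58, and both were then past the threshold. Saline 1 was also the highest saline library for Lpl, Cd9, Itgax and Gpnmb, and by a small margin for Cd68. The 6 adipocyte markers in the table summed to 17.9 to 36.5 CPM in saline, 13.2 to 30.0 CPM with gefitinib and 6.77 to 23.5 CPM in the combined group, and most of this was Adrb3. Of the defining markers, Adipoq averaged 0.139 CPM in saline and Retn 0.0435 CPM, and both were at 0 in the other 6 libraries, while Cidec averaged 2.31, 4.06 and 7.12 CPM in the 3 groups. Their part in the level of Fabp5 was not tested. Pseudogenes close to Fabp5 exist in the mouse genome, and how the authors' counting treated shared reads is not given, so its level is uncertain.

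LPL acts outside the cell, where other proteins hold it in place and regulate it. Gpihbp1, the endothelial protein that holds LPL in capillaries, was at 12.3, 9.65 and 18.9 CPM in saline, 2.70, 3.53 and 3.36 CPM with gefitinib, and 2.49, 2.58 and 2.49 CPM in the combined group. It fell 4.26-fold with gefitinib (adjusted p = 0.0106, edgeR), and the combined and gefitinib groups did not differ past the threshold (adjusted p = 0.448). The sums of 8 sinusoidal endothelial markers were 279 to 327 CPM in saline, 108 to 120 CPM with gefitinib and 51.6 to 73.6 CPM in the combined group, and their part in the fall of Gpihbp1 was not tested. Apoa5, a liver-made activator of LPL, was 2.15-fold lower in the combined group than with gefitinib (adjusted p = 0.0069, edgeR). Of the 11 tested genes of the lipase system, 0 were higher and 1 lower in that comparison, and 0 were higher and 3 lower against saline. These were 9.09% and 27.3% of the list, beside 9.08% and 17.7% of all tested genes, so the former was near that share.

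In the list of lipid uptake, storage and export, 5 of 17 tested genes were higher and 3 lower in the combined group than with gefitinib. Together these were 47.1% of the list, beside 9.08% of all tested genes. Msr1, a scavenger receptor of macrophages, rose 2.30-fold (adjusted p = 0.000719, edgeR), and Fabp4, a fatty acid carrier of adipocytes, macrophages and endothelium, rose 2.99-fold (adjusted p = 0.000866). Lipe, the hormone-sensitive lipase, fell 2.23-fold (adjusted p = 0.00184, edgeR). Fabp4 stood at 7.03 ± 1.17 CPM (SD, n = 3) in saline and 4.78 ± 0.36 CPM with gefitinib, which did not differ past the threshold (adjusted p = 0.165). None of the 17 passed with gefitinib against saline.

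Counted together, 4 of the 10 genes were past the threshold and higher with gefitinib than with saline, namely Gpnmb, Lgals3, Capg and Cd68. Of all tested genes, 1.14% were past it in either direction and 0.547% were higher. In 6 of the 10, Itgax and Trem2 included, every gefitinib library lay above every saline library, as it did for 9.70% of all tested genes. For combined against gefitinib, 8 of 10 were past the threshold, all higher, where 9.08% of tested genes were past it and 4.96% were higher. The same 8 genes had non-overlapping values, against 16.2% of all genes in that direction. For combined against saline the count was again 8 of 10, beside 17.7% in either direction, 9.37% higher, and 19.3% with non-overlapping higher values. The median log2 fold change of the 10 genes was 1.37, 2.32 and 3.86 in the 3 comparisons, and that of all tested genes was within 0.01 of 0. Because the 10 genes were set with these results known, nothing is read from these counts.

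**Figure D2:**
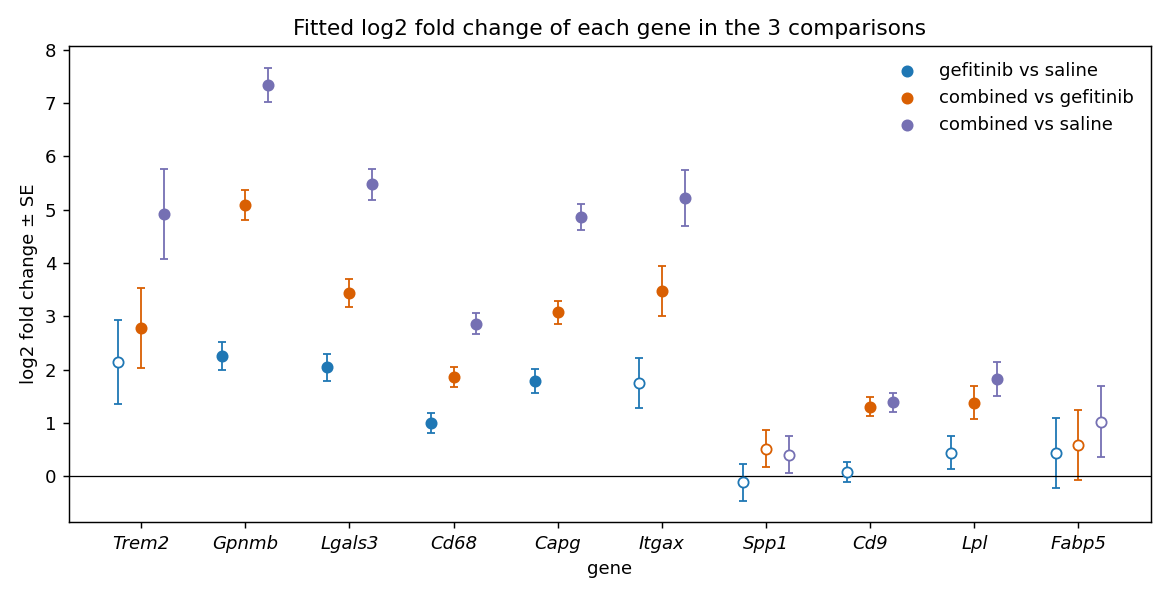
Fitted log2 fold change of each of the 10 genes in the 3 comparisons, with SE bars from edgeR, filled where past the adjusted p threshold. Gpnmb stands highest at 7.35 for combined against saline, and Spp1 and Fabp5 have no filled point.

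By log2 fold of combined against gefitinib, the order of the 8 genes ran Gpnmb, Itgax, Lgals3, Capg, Trem2, Cd68, Lpl and Cd9, from 5.09 to 1.30. Neighbours from Itgax to Trem2, at 3.47 ± 0.47, 3.44 ± 0.26, 3.07 ± 0.22 and 2.78 ± 0.75, lay within their standard errors of each other or close to it, and so did Lpl and Cd9 at 1.38 ± 0.31 and 1.30 ± 0.18. On the log2 scale the place of gefitinib on the way from saline to combined differed between the genes. It was 48.9% for Trem2, 36.8% for Lgals3, 36.7% for Itgax, 36.0% for Capg and 33.7% for Cd68. For Gpnmb it was 30.2%, for Lpl 26.4% and for Cd9 6.47%. Fabp5 and Spp1, whose groups overlapped, gave 66.0% and -46.0%.

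Muscle transcripts were in the combined libraries and in gefitinib 1, so values of the 10 genes were also set against gefitinib 1 alone. Its levels were the lowest of the gefitinib group for Trem2, Cd9, Spp1, Lpl, Fabp5 and Capg, and none of the 10 was at its highest of that group there except Itgax. With gefitinib 1 as the only gefitinib library, a choice made after seeing the data, the log2 fold of combined over gefitinib was 5.31 for Gpnmb, 3.82 for Trem2, 3.58 for Lgals3, 3.34 for Capg, 3.29 for Itgax and 2.07 for Cd68. Lpl was at 1.90 and Cd9 at 1.62. In that fit, whose lone gefitinib library is taken to vary like the other groups, Itgax, Lpl and Trem2 lost their calls. Calls over all tested genes fell there too.

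Without gefitinib 1, the 10 genes counted 3 past the threshold with gefitinib against saline and 6 for combined against gefitinib, with Cd68 lost from the former and Trem2 and Lpl from the latter. Calls over all tested genes fell as well, to 75 and 751 of 18859 from 206 and 1644 of 18113 in the main fit. The 8 neutrophil markers summed to 3.82 to 6.38 CPM in saline, 12.5 to 28.7 CPM with gefitinib and 11.5 to 132 CPM in the combined group, so every treated library lay above every saline library, and combined 3 was the highest. Ly6g, a defining marker of neutrophils, was at 0 in all saline libraries. It was near 0 elsewhere too, at 0.0995 ± 0.0542 CPM (SD, n = 3) with gefitinib and 0.245 ± 0.375 CPM in the combined group, and did not pass the filter. In combined 3, Gpnmb, Lgals3, Itgax and Capg were at their lowest of the combined group and Trem2 and Fabp5 at their highest. The part of neutrophils in the levels of the 10 genes was not tested.

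The sum of general macrophage markers was higher in the combined group as well, where Lyz2 averaged 261 CPM and Mpeg1 183 CPM. The 10 general macrophage markers summed to 117 to 164 CPM in saline, 172 to 220 CPM with gefitinib and 620 to 664 CPM in the combined group, none of them was at 0 in any library, and their part in the levels of the 10 genes was not tested. Of these markers, 4 were past the threshold for combined against gefitinib, or 40% beside 9.08% of all tested genes. They were Mpeg1 (3.51-fold), Lyz2 (6.46-fold), Cd14 (9.28-fold) and Laptm5 (2.83-fold). The identity markers Adgre1, which encodes F4/80, and Csf1r, the receptor for macrophage growth factor, were not past it. They stood at 1.40-fold (adjusted p = 0.163) and 1.47-fold (adjusted p = 0.106, edgeR). Mertk, also not past the threshold, averaged 18.3, 15.6 and 18.1 CPM in saline, gefitinib and combined. The 10 markers of resident Kupffer cells summed to 209 to 350 CPM, 296 to 382 CPM and 306 to 572 CPM in the 3 groups, and none was past the threshold for combined against gefitinib. Clec4f, a lectin of resident Kupffer cells, was at 101, 73.7 and 132 CPM in saline and 73.8, 90.1 and 171 CPM in the combined group. Means of other markers on this list went both ways. Marco was at 2.84, 11.4 and 17.6 CPM in saline, gefitinib and combined, and Cd163 at 11.1, 8.54 and 2.68 CPM. For combined against saline, 3 of the 10 Kupffer cell markers were past the threshold, all higher, or 30% beside 17.7% of all tested genes.

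**Figure D3:**
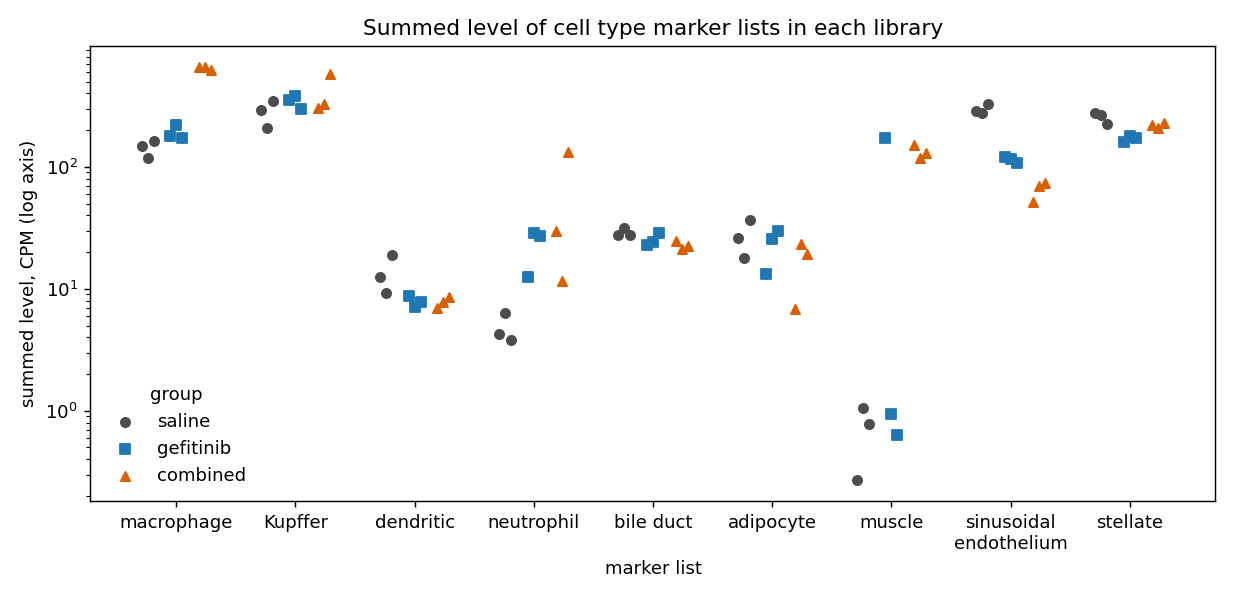
Summed level of the markers of 9 cell types in each library, in CPM on a log axis. Macrophage markers reach 620 to 664 CPM in the combined group, Kupffer cell markers overlap between groups, and muscle markers stand apart in gefitinib 1 and the combined libraries.

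Set against the mean log2 CPM of the 10 general macrophage markers, the 10 genes fell into 2 sets, a division made after the values were seen. Relative to those markers, combined exceeded gefitinib by 3.88 for Gpnmb, 2.26 for Lgals3, 2.24 for Itgax, 1.87 for Capg, 1.67 for Trem2 and 0.68 for Cd68, on the log2 scale, and the libraries of the groups did not overlap. For Lpl, Cd9, Spp1 and Fabp5 the differences were 0.20, 0.10, -0.67 and -0.67, and the libraries overlapped. Against saline, Spp1 relative to the markers was lower in the combined group by 1.26 without overlap. With gefitinib against saline, Gpnmb, Lgals3, Itgax and Capg had non-overlapping higher relative levels, by 1.79, 1.60, 1.58 and 1.32. The share of all tested genes without overlap was not computed on this scale, so nothing is read from these counts. On plain CPM, 16.2% of them were higher without overlap for combined against gefitinib, and 9.70% for gefitinib against saline. Some of the 10 markers had themselves passed the threshold, so a smaller relative difference is no sign of an unchanged level.

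**Figure D4:**
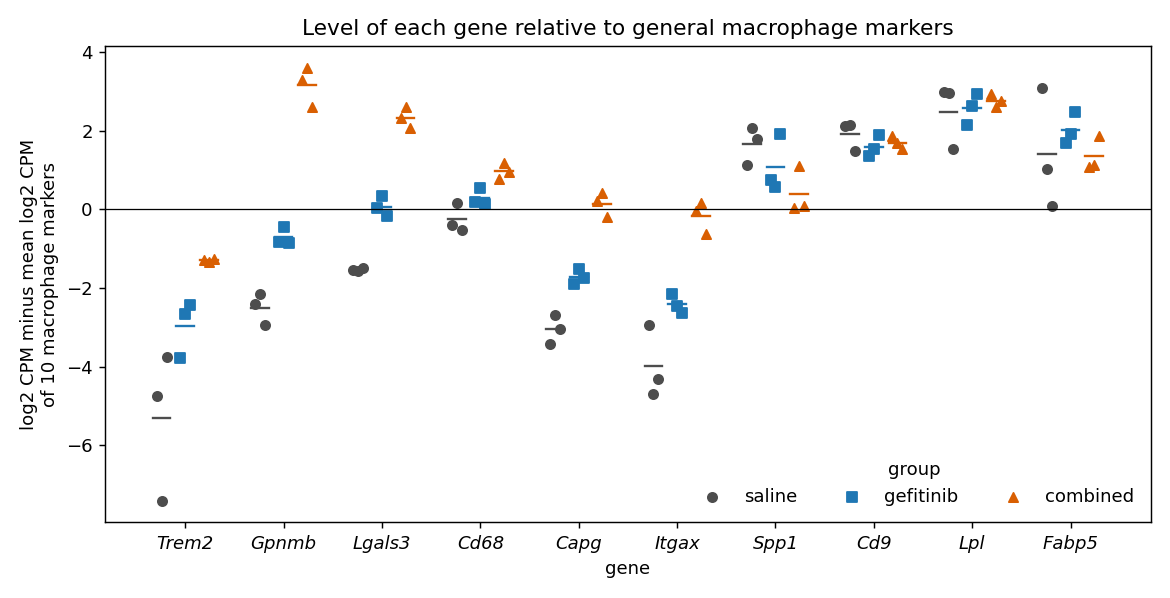
Level of each of the 10 genes relative to general macrophage markers, as log2 CPM minus the mean log2 CPM of 10 markers in the same library, with points for libraries and bars for group means. Gpnmb, Lgals3, Capg, Itgax, Trem2 and Cd68 stand higher in all combined libraries than with gefitinib, while Cd9, Lpl, Spp1 and Fabp5 overlap.

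Levels between genes were compared per length, as CPM per kilobase of the longest coding transcript in GENCODE M21. On this scale Fabp5, Cd9 and Spp1 were the 3 highest of the 10 in saline, at 37.1, 27.9 and 19.2 CPM per kilobase, and Itgax was the lowest at 0.163. The place of Fabp5 rests on saline 1, since it was at 86.1, 13.4 and 11.7 CPM per kilobase in saline 1, 2 and 3, and in the latter 2 libraries it lay below both Cd9 and Spp1. In the combined group the mean of Lgals3 was 98.5, followed by Fabp5 at 75.1, Cd9 at 72.9 and Gpnmb at 68.7 CPM per kilobase. On this scale the libraries of Fabp5, Cd9 and Gpnmb overlapped, and those of Lgals3, at 87.8 to 111, overlapped with Fabp5, which reached 109 in combined 3, while Trem2, at 10.3, and Itgax, at 6.14, stayed the 2 lowest. The lengths behind the deposited FPKM values were larger, between 1.16 times that transcript for Cd68 and 5.21 times for Trem2, so the authors' FPKM place Trem2 lower among the 10 than its messenger length would.

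Summed over the 10 genes, the level was 246, 132 and 125 CPM in saline, 173, 254 and 257 CPM with gefitinib, and 908, 961 and 849 CPM in the combined group. Saline and gefitinib overlapped in this sum through saline 1, in which Fabp5 and Lpl made up most of the total. The combined libraries lay apart.

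Outside the 10 genes, 9 lists of related genes held 149 tested genes, chosen with earlier results known. For combined against gefitinib, 58 of the 149 were past the threshold (52 higher and 6 lower), or 38.9%, beside 9.08% of all tested genes. The figures were 6 (5 higher and 1 lower) with gefitinib against saline, or 4.03% beside 1.14%, and 83 (71 higher and 12 lower) for combined against saline, or 55.7% beside 17.7%. The count with gefitinib against saline depended on the setting, from 2 to 19. Over all tested genes it ran from 32 without gefitinib 2 to 868 with DESeq2.

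The list of other lipid-associated or scar-type macrophage genes held the largest share of these, with 18 of 21 higher and 0 lower for combined against gefitinib. That was 85.7% of the list, beside 9.08% of all tested genes. Vim, an intermediate filament protein of mesenchymal and myeloid cells, rose 4.40-fold (adjusted p = 0.000241, edgeR), from 17.9 ± 3.60 CPM (SD, n = 3) to 78.7 ± 10.5 CPM. Anxa1, a phospholipid-binding protein that dampens inflammation, rose 4.78-fold (adjusted p = 0.00038) and Emp1, an epithelial membrane protein, 8.27-fold (adjusted p = 0.000504, edgeR). Emp1 stood at 1.38, 2.27 and 1.90 CPM in saline and 1.13, 1.66 and 1.36 CPM with gefitinib, and these groups overlapped. Mmp12, the macrophage elastase, was the only gene of this list past the threshold with gefitinib against saline, at 10.1-fold (adjusted p = 0.0101, edgeR).

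Among transcription factors linked to these macrophages or their lysosomes, 5 of 18 were higher and 1 lower for combined against gefitinib. Together they were 33.3% of the list, beside 9.08% of all tested genes. Spi1, which encodes PU.1, the lineage factor of myeloid cells, was at 3.68, 4.25 and 3.45 CPM in saline, 5.22, 4.46 and 3.71 CPM with gefitinib, and 12.1, 13.7 and 17.1 CPM in the combined group. It rose 3.20-fold over gefitinib (adjusted p = 0.00127, edgeR). Tfe3, an activator of lysosomal genes, rose 1.55-fold (adjusted p = 0.00803). Maf, a factor of resident macrophages that endothelium also expresses, fell 1.94-fold (adjusted p = 0.0122, edgeR). Mitf, a relative of Tfe3, was at 4.04 ± 0.338 CPM (SD, n = 3) with gefitinib and 6.26 ± 0.0954 CPM in the combined group, and did not pass against gefitinib (adjusted p = 0.051, edgeR), although it did in 5 of 18 alternatives.

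Of 11 tested genes of monocyte recruitment and growth, 3 (27.3%, beside 9.08% of all tested genes) were higher for combined against gefitinib. These were Csf2rb, a receptor chain for GM-CSF, at 2.72-fold (adjusted p = 0.00428, edgeR), Cx3cl1, a membrane-bound chemokine, at 5.73-fold (adjusted p = 0.0177), and Ccl2, the main chemokine for monocytes, at 7.74-fold (adjusted p = 0.0264, edgeR). Cx3cl1 and Ccl2 were low throughout, with at most 1.61 and 7.70 CPM in a library, and lost their calls in 5 and 6 of 18 alternatives. Chil3, a chitinase-like protein of activated macrophages, had 4, 0 and 0 reads in saline, 46, 70 and 27 with gefitinib, and 135, 187 and 486 in the combined group. It was higher with gefitinib than with saline (adjusted p = 0.0497, edgeR), in 4 of 18 alternatives only, and close relatives of the gene may share its reads.

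Of 17 tested relatives of the 10 genes within their own families, 2 were higher and 1 lower for combined against gefitinib. Together they were 17.6% of the list, beside 9.08% of all tested genes. Fabp7, another fatty acid carrier, rose 3.44-fold (adjusted p = 0.0122, edgeR) and Cd53, a tetraspanin of leukocytes, 2.46-fold (adjusted p = 0.0394). Lgals8, a galectin that marks damaged vesicles, fell 1.37-fold (adjusted p = 0.0385, edgeR), and lost its call in 13 of 18 alternatives. Cd53 lost its own in 10.

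Against saline, several genes of these lists were past the threshold in the combined group that were not so against gefitinib or were not among the strongest there, and the differences between the comparisons were not tested. Soat1, which esterifies cholesterol for storage in droplets, was 4.98-fold higher (adjusted p = 0.000823, edgeR), and Acsl1, a long-chain acyl-CoA synthetase abundant in hepatocytes, was 2.79-fold lower (adjusted p = 0.000663). Itgam, the integrin chain CD11b of myeloid cells, was 6.75-fold higher (adjusted p = 0.00255, edgeR), and Lipc, the hepatic lipase, was 1.57-fold lower (adjusted p = 0.00597). Anxa5, a phospholipid-binding protein, was 3.80-fold higher (adjusted p = 6.19e-05, edgeR). Trem1, a receptor of neutrophils and monocytes in the family of Trem2, had 0 reads in every saline library, 5, 4 and 4 reads with gefitinib, and 20, 18 and 19 in the combined group. The combined libraries held neutrophil transcripts too, and their part in Trem1 was not tested.

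**Figure D5:**
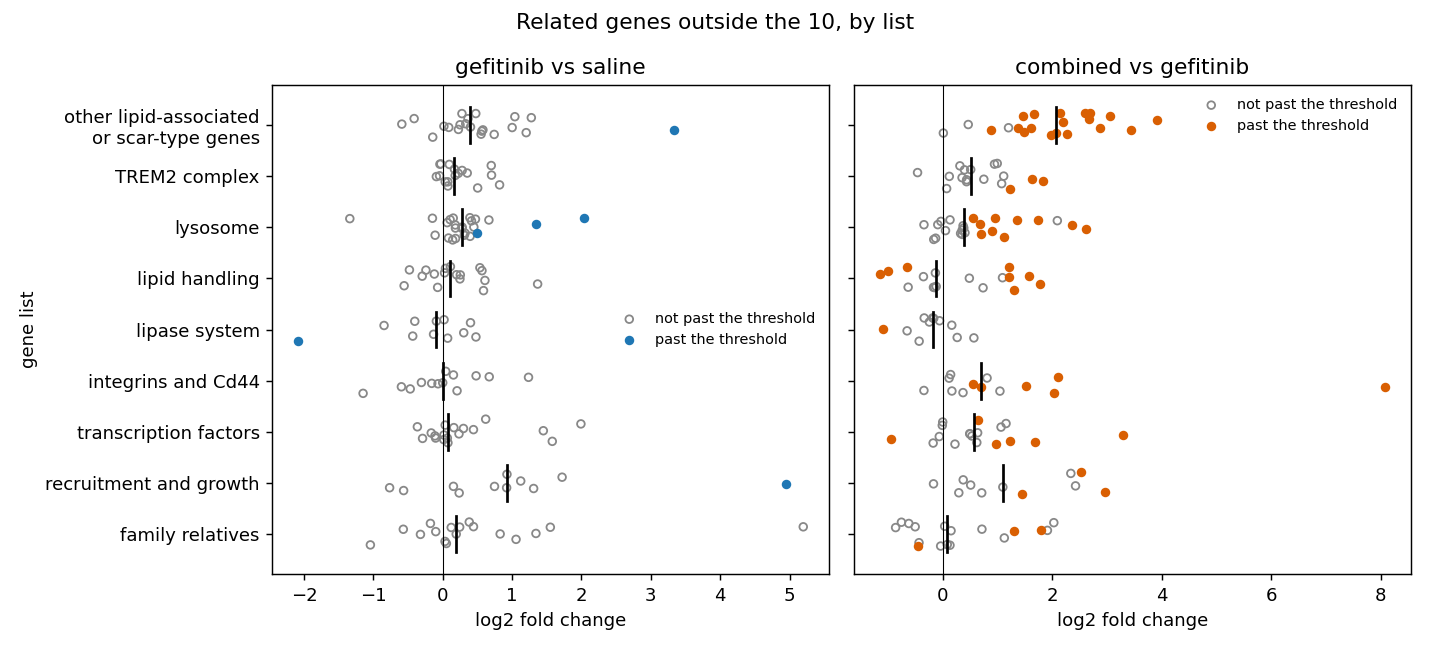
Log2 fold change of each tested gene of the 9 related lists for gefitinib against saline (left) and combined against gefitinib (right), filled where past the threshold, with a bar at each list's median. The list of other lipid-associated or scar-type genes lies almost wholly to the right of 0 on the right, and the point at 8.08 is Itgad, which had 0 reads in all saline and gefitinib libraries, so its fitted value is no bound.

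Across the 9 libraries, the genes most like the mean z-score of the 10 were Matk, Plek, Tnfaip3, Apobec1, Gltp, Myof, Atf3 and Rasa4, with Pearson r from 0.983 to 0.994 on log2 CPM. The 9 points fall into the 3 groups, and 129 genes had r above 0.95, so likeness mainly reflects the order of the group means and carries no p. Plek, a phosphoprotein of platelets and leukocytes, was at 2.41 ± 0.327 CPM (SD, n = 3) in saline, 4.04 ± 0.904 CPM with gefitinib and 13.7 ± 2.77 CPM in the combined group. Atf3, a stress-induced transcription factor of the family that binds AP-1 and CRE sites, was at 1.12 ± 0.386, 2.53 ± 0.157 and 29.3 ± 4.63 CPM in the same order. Tnfaip3, an inhibitor of NF-kappaB signalling, was at 2.70 ± 0.675, 4.29 ± 1.10 and 15.5 ± 2.87 CPM. Among the 10 genes themselves, r with their own mean ran from 0.980 for Gpnmb to 0.691 for Fabp5 and 0.416 for Spp1.

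Within groups, deviations from the group means had r of 0.85 between Lpl and Cd9, 0.81 between Lpl and Fabp5 and 0.78 between Cd9 and Fabp5, over the same 9 libraries. Saline 1 was the highest saline library for all 3 of these genes.

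For the motifs searched, the share of all 32851 RefSeq promoter windows of this length that held each was 6.75% for TGANTCA, 12.25% for CATGTG, 6.02% for CACGTG, 2.44% for GAGGAAGT and 29.5% for AGGAAG. Of the 8 genes with a window, 3 held TGANTCA (Trem2, Cd68 and Itgax), 1 held CATGTG (Cd9), and 1 held GAGGAAGT (Spp1, 113 bases before its first start), in which the core AGGAAG is contained. The core alone was in 3 of the 8 (Trem2, Cd9 and Spp1). No window held CACGTG.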

How the data were processed

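Liver RNA of 9 mouse libraries, 3 per group, was sequenced after messenger RNA library preparation with a SMARTer kit, per the labels' protocols. The submitters' processing notes name GRCm38, or mm10. No source used here names an aligner, a counter or a strand setting. Raw counts, whole numbers by their values, and FPKM computed by the authors are both in the deposited table, per the file headers. Coordinates are those of the deposited table, 1-based.

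Counts were fitted with edgeR 4.0.16 in R 4.3.3 (filterByExpr at its defaults, TMM factors from 0.905 to 1.14, a mean per group over all 9 libraries, 6 residual degrees of freedom). This left 18113 tested genes and 9832 untested. CPM was scaled to the library total times the TMM factor, and log2 CPM used a prior count of 2. An SE is the log2 fold change divided by the square root of F. No libraries were pooled, and none was taken as a repeat, since the chi-square of pairs within a group, divided by its degrees of freedom, was 84.6 to 175. The edgeR fit alone was run on simulated counts, drawn with its own estimates of spread, and the check made was on the median fold changes recovered. The limma and DESeq2 fits were not tested in this way.

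The 10 genes, the 9 related lists and the marker lists were chosen with earlier results of these data known. Named related genes are, per list and comparison, up to 3 past the threshold with the smallest adjusted p, of which the text gives most, and the partners Tyrobp, Gpihbp1, Itgb2, Cd44 and Mitf. The 8 genes most like the mean z-score of the 10 are also named. Apoe, Lyz2, Cd14, Laptm5, Adgre1, Mertk and Itgad were added after their values were seen. Alternatives were the replicate number as a block, median-ratio size factors, no filter, limma 3.58.1 on log2(FPKM + 1) and log2(FPKM + 0.1), DESeq2 1.42.0, only the 6 libraries compared, and each library left out. Scaling by library size alone and gefitinib 1 as the only gefitinib library were added after seeing the data. Transcript lengths came from GENCODE M21, and overlaps were sought among the genes of the deposited table only. None of the 10 genes overlapped another gene with more than 12 reads in all libraries together. Plots used matplotlib 3.10.9 under Python 3.11.15.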

Additional observations from a re-analysis of the deposited data

How the results depend on the processing

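None of 18 alternatives reversed the direction of a log2 fold change past the threshold among the 10 genes, and DESeq2 gave no adjusted p for Fabp5. Against saline, the combined group kept the same 8 genes in every alternative, with Fabp5 added where saline 1 was left out. Same-numbered libraries did not deviate together, with correlations from -0.0759 to 0.0711, so the numbers name libraries only. With the replicate number as a block, the 10 genes counted 3, 6 and 8 past the threshold, against 4, 8 and 8, and the related genes 2, 49 and 74, against 6, 58 and 83. Over all 18113 tested genes the block gave 82, 1028 and 2496, against 206, 1644 and 3205.

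For gefitinib against saline the count of the 10 genes was 1 with limma on log2(FPKM + 1), where only Lgals3 kept its call, and 2 with gefitinib 1 as the only gefitinib library. It ranged from 3 to 5 when a library was left out. The related genes in that comparison counted 3 with no filter, 2 and 3 with limma on log2(FPKM + 1) and log2(FPKM + 0.1), 19 with DESeq2, 3 with only the 6 libraries compared, 3 with gefitinib 1 alone, and 2 to 9 when a library was left out, the lowest without saline 2 or saline 3 and the highest without saline 1. The related genes counted 3 without gefitinib 1 or gefitinib 2. Over all tested genes the calls in that comparison moved too. They were 206 of 18113 in the main fit, 868 of 19705 with DESeq2 and 82 of 27945 with no filter. With limma on log2(FPKM + 1) and log2(FPKM + 0.1) they were 93 and 73. When a library was left out they ran from 32 of 18879, without gefitinib 2, to 171 of 18880, without saline 1. For combined against gefitinib, gefitinib 1 alone gave 5 of the 10 genes, with Itgax, Lpl and Trem2 lost, and 22 of the related genes. That fit has a lone gefitinib library, taken to vary like the other groups. The causes of these shifts were not tested.

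Scaling by library size alone moved the median log2 fold change of all genes by 0.17 for combined against gefitinib and 0.21 against saline, and changed no call among the 10 genes. With limma on log2(FPKM + 0.1) the shifts were 0.15 and 0.19. The limit of depth is felt most by Trem2, with 0 to 41 reads in the saline libraries.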
